A study of Mus musculus with 17 samples.

Results

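The choroid plexus genes described here were Ttr, Folr1, Clic6, Sostdc1, Prlr, Slc4a5, Kl and Kcne2, 8 of the 20328 genes listed in the RNA-seq table. They were chosen by name from a list of choroid plexus genes after their levels in these same libraries were known, so their RNA-seq and scRNA-seq values are a description and carry no test. All 8 passed the filter on low counts that left 19300 genes. The study examined mouse brain by RNA-seq, by CUT&RUN for H3K27ac (acetylation of lysine 27 of histone H3, a mark of active promoters and enhancers), by ATAC-seq (open chromatin) and by scRNA-seq, in 17 samples. All mice were wild-type ICR mice, described in the study's methods as adult females, and were 8 weeks old at the lesion.

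The sham group had 2 RNA-seq libraries. The 6-OHDA group had 1 library, from mice that received 6-OHDA, a toxin of catecholamine neurons, at 10 µg per µl. It was injected into the substantia nigra on 1 side. By the study's methods, lesioned mice were then given saline or NDST3. The methods for these samples do not state what sham mice received. The 6-OHDA+NDST3 group had 2 libraries, from mice with the same lesion. These mice received 2 µl of NDST3, a heparan sulfate-modifying enzyme delivered by a vector, in the substantia nigra 5 days later. The study's methods describe an AAV9 vector carrying human NDST3 and a lentiviral NDST3 vector. Their account of these samples does not name the vector injected. Both vectors were driven by the CMV promoter, which is active in many cell types. The labels name no vector control among these libraries. The labels give the tissue as brain without a dissected region. They do not say whether replicates came from separate animals or pools, so the spread between them may be partly technical.

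The choroid plexus is a fold of vascular tissue in the brain ventricles, covered by an epithelium that secretes cerebrospinal fluid and forms the barrier between blood and that fluid. Its cells move sodium, chloride, bicarbonate and water from the blood side to the ventricle, and they release carrier proteins and hormones into the fluid. The substantia nigra itself holds no choroid plexus. In bulk tissue, fewer cells of a type and less RNA per cell cannot be told apart, and this holds for every RNA-seq value below.

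Total counts ranged from 51003699 to 70533326 per library, and the scaling factors for composition from 0.979 to 1.02. The summed TPM (a level corrected for gene length and depth) of 6 dopamine neuron markers was 666 and 637 in sham, 19.7 in the 6-OHDA library and, with NDST3, 107 and 83.4. The summed TPM of 10 hypothalamic markers was 552 in the 6-OHDA library and 35 to 49.5 in the other 4 libraries. The 6-OHDA library therefore stood apart from the rest in this sum, and it is the only library of its group. The sum did not stand for all its members. Hcrt had 3024 counts there against 2 to 73 in the other libraries, and Pmch 5185 against 25 to 274. Avp and Oxt were also highest there. Otp was lowest there, at 62 counts against 157 to 730, and so were Trh and Agrp. Pomc, Crh and Sim1 lay within the range of the other libraries in counts.

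Promoter sequences are shown for 4 of the 8 genes, those held by the RefSeq promoter table used here (GRCm38.p6), because these genes were highest together in 1 library and because chromatin regions were listed near the starts of Kcne2 and Prlr. Each run is the 250 bases before a transcription start, on the + strand, with CpG dinucleotides in capitals. Kcne2 lies at chr16:92292139-92292388, Prlr at chr15:10176988-10177237, Kl at chr5:150952357-150952606 and Slc4a5 at chr6:83237125-83237374. The Slc4a5 start is an internal one, within the annotated span of the gene.
Kcne2: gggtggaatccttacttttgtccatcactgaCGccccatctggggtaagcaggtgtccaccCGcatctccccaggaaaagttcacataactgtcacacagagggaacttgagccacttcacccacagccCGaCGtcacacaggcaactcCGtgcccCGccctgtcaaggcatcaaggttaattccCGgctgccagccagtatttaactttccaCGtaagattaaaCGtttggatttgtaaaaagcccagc
Prlr: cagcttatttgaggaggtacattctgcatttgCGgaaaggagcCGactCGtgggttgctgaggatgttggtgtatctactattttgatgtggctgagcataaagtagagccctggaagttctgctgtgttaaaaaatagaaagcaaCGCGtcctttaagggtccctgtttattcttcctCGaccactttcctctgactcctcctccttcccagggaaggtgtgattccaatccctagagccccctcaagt
Kl: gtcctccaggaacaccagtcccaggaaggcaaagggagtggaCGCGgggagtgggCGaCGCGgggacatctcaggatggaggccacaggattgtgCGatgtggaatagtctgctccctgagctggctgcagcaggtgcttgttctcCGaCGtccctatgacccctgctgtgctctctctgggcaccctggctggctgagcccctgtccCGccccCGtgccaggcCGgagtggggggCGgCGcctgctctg
Slc4a5: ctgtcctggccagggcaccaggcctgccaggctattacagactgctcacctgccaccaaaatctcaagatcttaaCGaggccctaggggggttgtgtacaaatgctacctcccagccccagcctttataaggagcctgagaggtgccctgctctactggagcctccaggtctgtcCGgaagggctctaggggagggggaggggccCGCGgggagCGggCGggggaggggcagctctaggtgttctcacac

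The 4 promoters differed in base composition. They held 9 CpG in Kcne2, 6 in Prlr, 13 in Kl and 6 in Slc4a5, against a median of 6 in all 32851 promoters of this length, and their GC content was 52.4%, 48.0%, 66.8% and 62.8%, against a median of 52.4%. The 4 genes had 7 promoters in the table. The letters TAATCC, bound by OTX2-type homeodomain factors, were in 0 of the 7 on either strand and in 6.25% of all promoters. TAATTA was in 0 of 7 (4.84% of all), CACGTG in 0 of 7 (6.02% of all) and TATAAA only in Slc4a5, on the reverse strand at 127 bases before the start (12.4% of all). With 7 promoters and motifs this rare, these counts are near what the shares of all promoters give, and nothing particular to the 4 genes can be read from them.

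All 8 genes had their highest level in replicate 2 of the NDST3-treated PD model. Over all 19300 genes tested, 12.5% were highest in that library. Ttr, which encodes transthyretin, the carrier of thyroxine and retinol-binding protein in cerebrospinal fluid, was at 2032 TPM there and at 4.39 TPM in replicate 1 of the same group. The summed TPM of the 8 genes was 78.9 and 17.5 in sham, 53.2 in the 6-OHDA library, 13.6 in NDST3-treated replicate 1 and 2129 in replicate 2. Ttr made up 95.4% of the last sum. Without Ttr, the other 7 genes summed to 18.4, 11.5, 11.2, 9.2 and 97.4 TPM in the same order, so the high library was the same one.

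**Figure D1:**
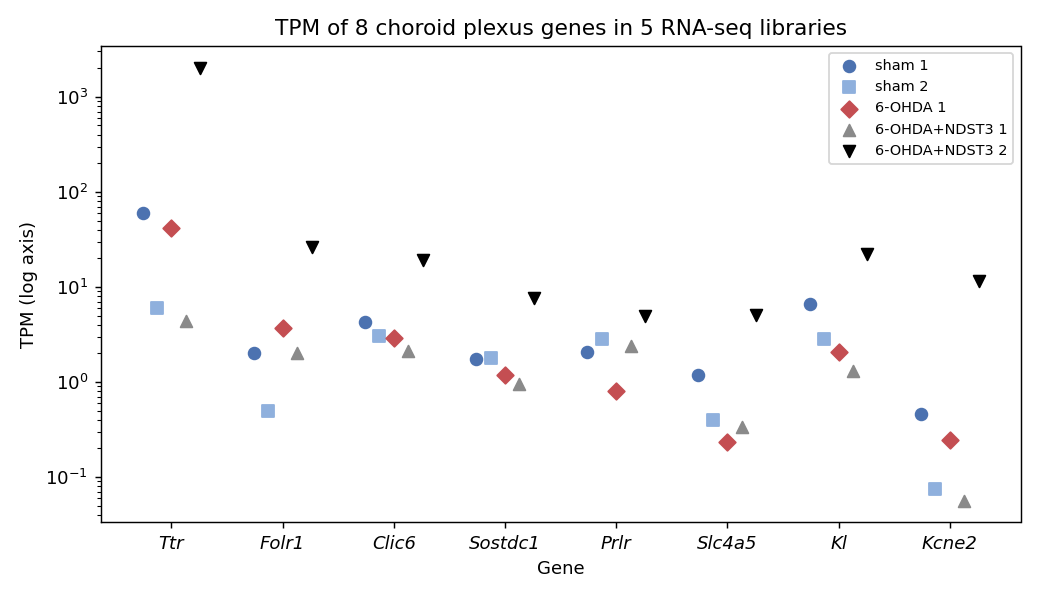
TPM on a log axis (y) of each of the 8 choroid plexus genes (x) in the 5 RNA-seq libraries, 1 point per library. The black triangle, replicate 2 of the 6-OHDA+NDST3 group, is the highest point for every gene, and Ttr reached 2032 TPM there.

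Ttr (NCBI Gene 22139, chromosome 18 of GRCm38 from 20664209 to 20674326) had 1556 and 210 counts in sham, 1242 in the 6-OHDA library and, with NDST3, 137 and 61382. This corresponded to 60.5, 6.07, 41.9, 4.39 and 2032 TPM. The 2 sham libraries already differed 9.93-fold in CPM (counts scaled to library depth), and the 6-OHDA library lay between them. In NDST3-treated replicate 2, Ttr took 0.105% of all counts and ranked 32 of all genes by TPM. In replicate 1 it took 0.000228% and ranked 12478. The ratio of replicate 2 to replicate 1 was 447-fold in CPM, and that of replicate 2 to the next highest library, sham replicate 1, was 34-fold, which ranked 1 among all genes tested.

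Sostdc1 encodes a secreted antagonist of BMP and Wnt signalling. It lies on chromosome 12 from 36314169 to 36318452 (NCBI Gene 66042). Its TPM was 1.75 and 1.81 in sham, 1.19 in the 6-OHDA library and, with NDST3, 0.95 and 7.57. The 2 sham libraries were nearly equal for this gene, at a CPM ratio of 0.968, and replicate 2 of the NDST3-treated group was 4.23-fold above the higher of them. The other 4 libraries spanned only 1.8-fold.

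Kl encodes klotho, the co-receptor of FGF23, whose soluble form is found in cerebrospinal fluid. On chromosome 5 from 150952607 to 150993817 (NCBI Gene 16591), it had 6.68 and 2.81 TPM in sham, 2.09 in the 6-OHDA library and, with NDST3, 1.3 and 22.3. Sham replicate 1 was 2.37-fold above sham replicate 2 in CPM. NDST3-treated replicate 1 was the lowest of the 5 libraries and replicate 2 the highest, 16.7-fold apart.

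Among the receptors, Folr1 encodes folate receptor alpha, which carries folate across the choroid plexus epithelium. It lies on chromosome 7 from 101858331 to 101870788 (NCBI Gene 14275). Its TPM was 2.01 and 0.498 in sham, 3.72 in the 6-OHDA library and, with NDST3, 2.01 and 26.6. It was the only gene of the 8 for which the 6-OHDA library was above both sham libraries and second to NDST3-treated replicate 2, at a distance of 5.46-fold in CPM.

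Prlr encodes the prolactin receptor. It lies on chromosome 15 from 10177238 to 10349190 (NCBI Gene 19116). Its TPM was 2.06 and 2.86 in sham, 0.809 in the 6-OHDA library and, with NDST3, 2.42 and 4.98. Prlr was the least uneven of the 8, with the NDST3-treated libraries 1.88-fold apart in CPM and replicate 2 1.65-fold above sham replicate 2. It was also the only gene of the 8 for which NDST3-treated replicate 1 lay within the range of the sham libraries.

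Of the ion transport genes, Slc4a5 encodes a sodium bicarbonate cotransporter of the ventricle-facing membrane. It lies on chromosome 6 from 83207580 to 83304945 (NCBI Gene 232156). Its TPM was 1.19 and 0.402 in sham, 0.234 in the 6-OHDA library and, with NDST3, 0.334 and 5.13. Replicate 2 exceeded replicate 1 by 13.6-fold in CPM and sham replicate 1 by 4.15-fold. The lowest library was the 6-OHDA library, with 32 counts.

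Kcne2 encodes an accessory subunit of voltage-gated potassium channels that is needed for normal secretion by this epithelium. It lies on chromosome 16 from 92292389 to 92298133 (NCBI Gene 246133). Its counts were 17 and 4 in sham, 11 in the 6-OHDA library and, with NDST3, 3 and 486, or 0.463, 0.0743, 0.247, 0.0566 and 11.6 TPM. The CPM ratio of replicate 2 to replicate 1 was 162-fold. Its exact 95% binomial interval, 55-fold to 786-fold, covers counting error only. It makes no allowance for the choice of this gene with its levels known. Against the next library, sham replicate 1, the ratio was 24.7-fold, second to Ttr among all genes tested.

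Clic6 encodes a chloride intracellular channel protein. It lies on the same chromosome from 92498147 to 92541241 (NCBI Gene 209195). Its TPM was 4.23 and 3.02 in sham, 2.94 in the 6-OHDA library and, with NDST3, 2.13 and 19.2. The first 4 of these libraries spanned 1.9-fold in CPM, and replicate 2 was 4.6-fold above the highest of them.

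The order of the libraries was thus shared only at its top. After NDST3-treated replicate 2, the next library was sham replicate 1 for 5 genes (Ttr, Clic6, Slc4a5, Kl and Kcne2), sham replicate 2 for 2 and the 6-OHDA library for 1. The lowest library was NDST3-treated replicate 1 for 5 genes, the 6-OHDA library for 2 and sham replicate 2 for 1. The 6-OHDA library lay between the sham libraries in CPM for 3 genes, below both for 4 and above both for 1. NDST3-treated replicate 1 lay between them for 1 gene, below both for 6 and above both for 1. No order among the 3 groups can be read from the libraries below the top one.

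Replicate 2 was at least 2-fold above every other library for 7 of the 8 genes, against 0.679% of all genes tested, with Prlr the exception. It was at least 4-fold above for 6 of 8 (0.145% of all genes) and at least 8-fold above for Ttr and Kcne2 (0.0622% of all genes). Within the NDST3-treated group, replicate 2 was at least 2-fold above replicate 1 for 7 of the 8, against 5.41% of all genes. The median log2 ratio of replicate 2 to replicate 1 was 3.6 over the 8 genes and 0.0 over all genes. These libraries chose the genes, so the shares describe how far the genes stand from the bulk of the table and are not a test.

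**Figure D2:**
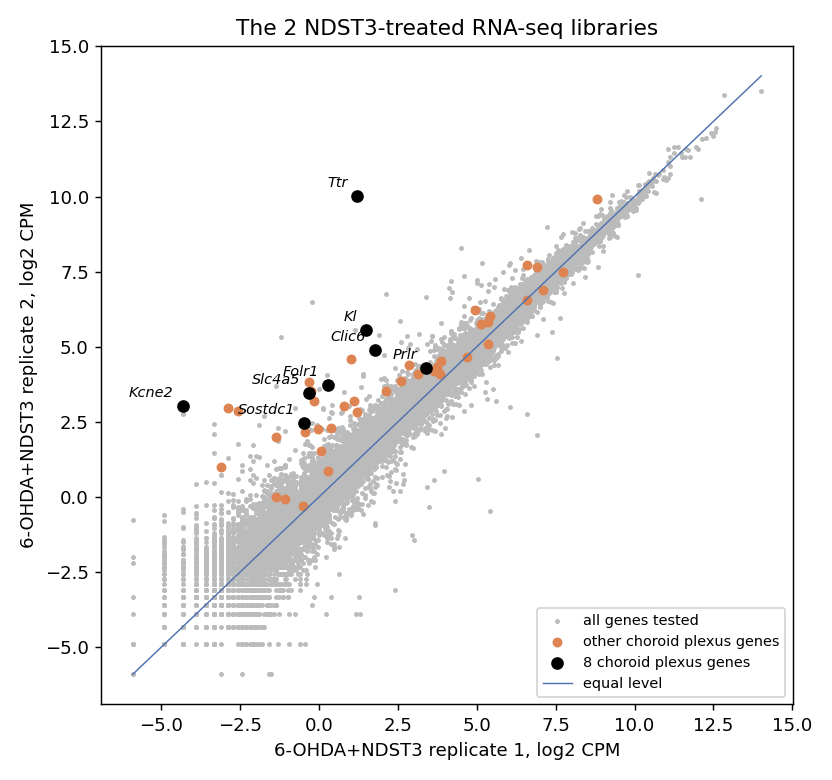
Log2 CPM of all 19300 genes tested in replicate 1 (x) and replicate 2 (y) of the 6-OHDA+NDST3 group, with the line of equal level. The 8 choroid plexus genes (black) lie above the line, Ttr by 447-fold and Prlr by 1.88-fold, while the median log2 ratio of all genes (grey) was 0.0.

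The sham pair also differed in these genes. Sham replicate 1 was above sham replicate 2 for 6 of the 8, with a median log2 ratio of 1.38, against -0.02 over all genes. The ratio ranged from 0.715-fold for Prlr to 9.93-fold for Ttr. A difference of this size between 2 libraries of 1 group was therefore present outside the treated group, although it was smaller there for all 8 genes than that between the NDST3-treated libraries.

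The comparison of the 6-OHDA library with sham asks what the lesion changed. The median log2 difference of the 8 genes was -0.23, with 3 of 8 higher, beside a median of 0.0 over all genes. Folr1 was 2.07 higher and Ttr 1.33 higher, whereas Prlr was 1.37 lower (a log2 difference of -1.37) and Slc4a5 had a difference of -1.34. For Ttr the sign depended on the sham library used, with 2.98 against sham replicate 2 alone and -0.33 against sham replicate 1 alone. Kcne2 behaved in the same way, at 1.88 and -0.63, and so did Clic6, at 0.16 and -0.33.

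The comparison of the NDST3-treated PD model with the 6-OHDA library asks what NDST3 changed after the lesion. The median log2 difference of the 8 genes was 1.11 and all 8 were higher, but this rested on 1 library. With replicate 2 alone the median was 2.89, and with replicate 1 alone it was -0.71, with 6 of 8 genes lower than in the 6-OHDA library. Ttr changed from 5.42 with replicate 2 alone to -3.39 with replicate 1 alone. Prlr was higher with either library, at 2.33 and 1.42, and Slc4a5 likewise, at 4.14 and 0.38.

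Against sham, the NDST3-treated group had a median log2 difference of 0.9 over the 8 genes, again with all 8 higher. The group means were 515 ± 726 CPM for Ttr (SD, n = 2) against 16.6 ± 19.2 in sham (n = 2). For Kl they were 25.1 ± 31.5 and 9.94 ± 5.72. In the treated group the SD exceeded the mean for 7 of the 8 genes, with Prlr (15.2 ± 6.53 against 10.3 ± 2.42) the exception. With replicate 1 alone the median was -0.89 and 6 of 8 genes were below sham, and with replicate 2 alone it was 2.63. The 3 comparisons share libraries, so their medians are not independent of each other.

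Other genes of the tissue were taken from a list of 43 choroid plexus genes that excludes the 8 and covers water and ion transport, carriers, tight junctions, transcription factors and secreted proteins. The table lists 39 of them, and all 39 were tested. Replicate 2 of the NDST3-treated group was the highest library for 20 of the 39, the 6-OHDA library for 12, sham replicate 1 for 4, sham replicate 2 for 3 and NDST3-treated replicate 1 for 0. Over all genes tested these shares were 12.5%, 38.9%, 13.1%, 27.1% and 8.45%. The median log2 ratio of replicate 2 to replicate 1 was 1.27, and 23 of 39 were at least 2-fold higher in replicate 2 (5.41% of all genes). At least 2-fold above every other library were 10 of the 39, at least 4-fold 5 and at least 8-fold 3 (0.679%, 0.145% and 0.0622% of all genes). This list was also chosen with earlier results of these data known, so these shares describe it and are not a test.

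The ratios within the list were uneven. Tmem72, a transmembrane protein gene, was 12.9-fold above the next library, at 0.302 and 0.0748 TPM in sham, 0.0691 in the 6-OHDA library and, with NDST3, 0.066 and 3.99. Car12, a membrane-bound carbonic anhydrase, was 9.93-fold above the next library, and the lactate transporter gene Slc16a8 9.36-fold. F5, which encodes coagulation factor V, was 5.93-fold above it and the tight junction gene Cldn2 4.81-fold. The water channel gene Aqp1 had 0.643 and 0.245 TPM in sham, 2.28 in the 6-OHDA library and, with NDST3, 0.128 and 6.3, with the same replicate 2 at the top and the same replicate 1 at the bottom.

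Other genes of the list had smaller ratios between the treated libraries than the genes just named. Enpp2, which encodes autotaxin and is also expressed in oligodendrocytes, was at 361 and 317 TPM in sham, 274 in the 6-OHDA library and, with NDST3, 317 and 701. The bicarbonate exchanger gene Slc4a2 ranged only from 53.3 to 60.5 TPM. Otx2, the homeodomain factor of the choroid plexus and of midbrain neurons, was at 6.95 and 12.4 TPM in sham, 8.1 in the 6-OHDA library and, with NDST3, 12.9 and 18.8. Igf2, which meningeal fibroblasts also express, was at 364 and 123 TPM in sham, 427 in the 6-OHDA library and, with NDST3, 59.9 and 135, so its highest library was another.

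**Figure D3:**
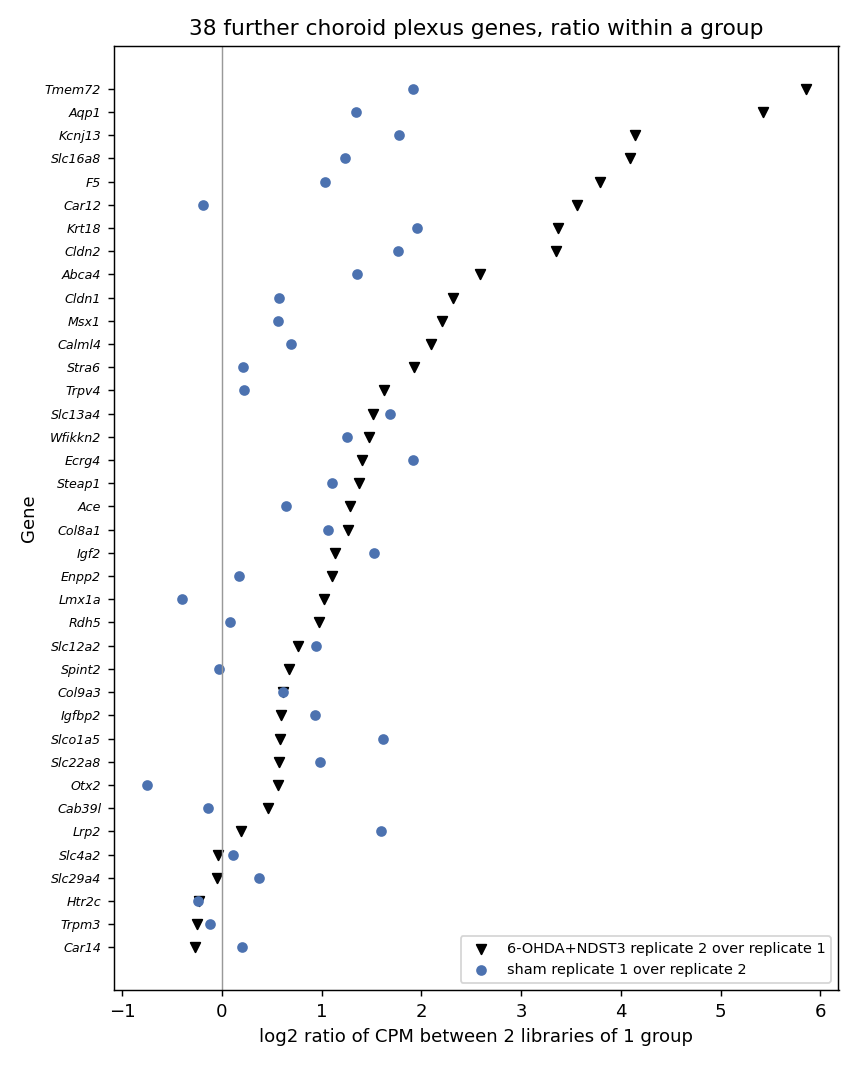
Log2 ratio of CPM (x) between the NDST3-treated libraries (black triangles, replicate 2 over replicate 1) and between the sham libraries (blue circles, replicate 1 over replicate 2) for 38 of the further choroid plexus genes (y), sorted by the former. Tmem72 and Aqp1 lie farthest to the right, and 33 of 38 triangles and 31 of 38 circles lie above 0.

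Counts were compared by the quasi-likelihood test of edgeR, with p-values adjusted over all genes tested (Benjamini-Hochberg). In this test 9 of the 39 (23.1%) passed an adjusted p of 0.05 between the 6-OHDA library and sham, against 35.8% of all genes. The list's median log2 difference was 0.25, beside 0.0 for all genes. Of the 9, 6 rose (18.8% of all genes were called higher) and 3 fell (17.1% of all genes were called lower). Among those that rose were the organic anion transporter gene Slco1a5 (log2 fold change 3.17), Ecrg4 (3.07), the retinol transporter gene Stra6 (3.03), the endocytic receptor gene Lrp2 (2.52) and the collagen gene Col9a3 (1.78). Those that fell were the serotonin receptor gene Htr2c (-2.18, SE 0.178, adjusted p = 0.00823 from edgeR), the monoamine transporter gene Slc29a4 (-1.50) and the cation channel gene Trpm3 (-0.65), all of which neurons also express. The summed TPM of 6 neuron markers moved with these 3 genes, at 4134 and 4614 in sham and 1432 in the 6-OHDA library, with all 6 called lower, and the part of neurons in the 3 values was not tested. Leaving out either sham library, which leaves 1 residual degree of freedom, gave 0 calls over all genes and so 0 of the 9, while the log2 fold changes of the 8 genes named here kept their sign. Without sham replicate 1 they were 4.31 for Ecrg4, 4.15 for Slco1a5 and 3.49 for Lrp2, and without sham replicate 2 they were 2.39, 2.55 and 1.91.

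Markers of several other cell types also rose in the 6-OHDA library beside these genes. Over all genes tested, 18.8% were called higher there and 17.1% lower. The summed TPM of 12 leptomeningeal fibroblast markers was 687 and 316 in sham and 1368 in the 6-OHDA library, and 7 of the 12 were called higher there. That of 5 red cell genes was 2915 and 1654 in sham and 6437 in the 6-OHDA library, with all 5 called higher. Microglial markers summed to 443 and 342 in sham and 2297 in the 6-OHDA library (6 of 6 called higher), astrocyte markers to 2944 and 2119.7 against 7324 (5 of 8), mural cell markers to 152 and 123 against 402 (3 of 6) and endothelial markers to 370.1 and 325 against 432 (4 of 10 called higher and 1 lower). In scRNA-seq, Slco1a5 had its highest mean in cluster 7, where all 10 endothelial markers were highest, and the other genes named as higher had theirs in cluster 2. The part of these cells in the values of the genes that rose was not tested.

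Between the NDST3-treated PD model and the 6-OHDA library, 2 of the 39 passed (5.13%, against 15.6% of all genes), and the list's median log2 difference was 0.26. Both were higher (9.06% of all genes were called higher and 6.59% lower). Htr2c rose by 2.02 (SE 0.176, adjusted p = 0.032 from edgeR), from 14.2 TPM in the 6-OHDA library to 68.0 and 59.8, and Slc29a4 rose by 1.07 (SE 0.20, adjusted p = 0.0378 from edgeR), from 9.31 to 21.6 in each treated library. The ratios of treated replicate 2 to replicate 1 were 0.854 and 0.969. The neuron markers moved the same way, from a summed TPM of 1432 to 3449 and 3333, with 5 of 6 called higher, and their part in the values of Htr2c and Slc29a4 was not tested. Both calls were lost without either sham library or NDST3-treated replicate 1, fits with 1 residual degree of freedom in which 0, 0 and 1 of all genes passed, while the log2 fold changes were 2.02, 2.02 and 1.90 for Htr2c and 1.07, 1.07 and 1.05 for Slc29a4. Without replicate 2, Slc29a4 also missed the threshold (adjusted p = 0.0541 from edgeR).

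Between the NDST3-treated PD model and sham, edgeR called 0 of the 39 and 0.0% of all genes at an adjusted p of 0.05, with 8 of the 39 at an unadjusted p under 0.05 (14.2% of all genes). DESeq2 called 3 of the 39 and 1039 of all 19300 genes, with no adjusted p for 2 of the 39. At the study's threshold of 2-fold and an unadjusted p under 0.05, the counts in the 3 comparisons were 11, 7 and 5 of the 39, against 24.5%, 15.7% and 5.86% of all genes. The list's median log2 difference was 0.61, beside 0.01 for all genes.

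Markers of neighbouring tissue were measured beside these genes. Of 117 listed markers in 18 lists of other cell types and brain regions, 18 (15.4%) were highest in NDST3-treated replicate 2, against 12.5% of all genes, and 2 were at least 2-fold above every other library. Ependymal cells line the ventricles next to the choroid plexus, and 11 of 15 of their markers were highest in replicate 2, none by 2-fold. Their summed TPM was 96.2 and 55.7 in sham, 151 in the 6-OHDA library and, with NDST3, 160.3 and 226. Both treated libraries were thus above both sham libraries in ependymal genes, while only 1 of them was high in the 8 choroid plexus genes.

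The habenula lies beneath the ventricular roof near the choroid plexus of the third ventricle. The summed TPM of its 5 markers was 17.8 and 19.1 in sham, 23.1 in the 6-OHDA library and, with NDST3, 19.3 and 36.1, with 3 of 5 highest in replicate 2. Both markers that were at least 2-fold above every other library were in this list. They were Gpr151, at 17, 8, 21, 24 and 296 counts, and Chrnb4, at 81, 128, 24, 111 and 267 counts, named after their values were seen. Pou4f1 was nearly equal in the treated libraries (18.9 and 19.0 CPM) and sham replicate 2 (18.8). Nwd2 was highest in sham replicate 1 (18.9 CPM, against 16.0 in treated replicate 2). Tac2 was highest in the 6-OHDA library (6.74 CPM, against 3.74 in treated replicate 2). In replicate 2 the leptomeningeal markers summed to 292 TPM and the endothelial markers to 333, within the range of the other 4 libraries (219 to 1368 and 294 to 432). The part of neighbouring tissue in the levels of the 8 genes was not tested.

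**Figure D4:**
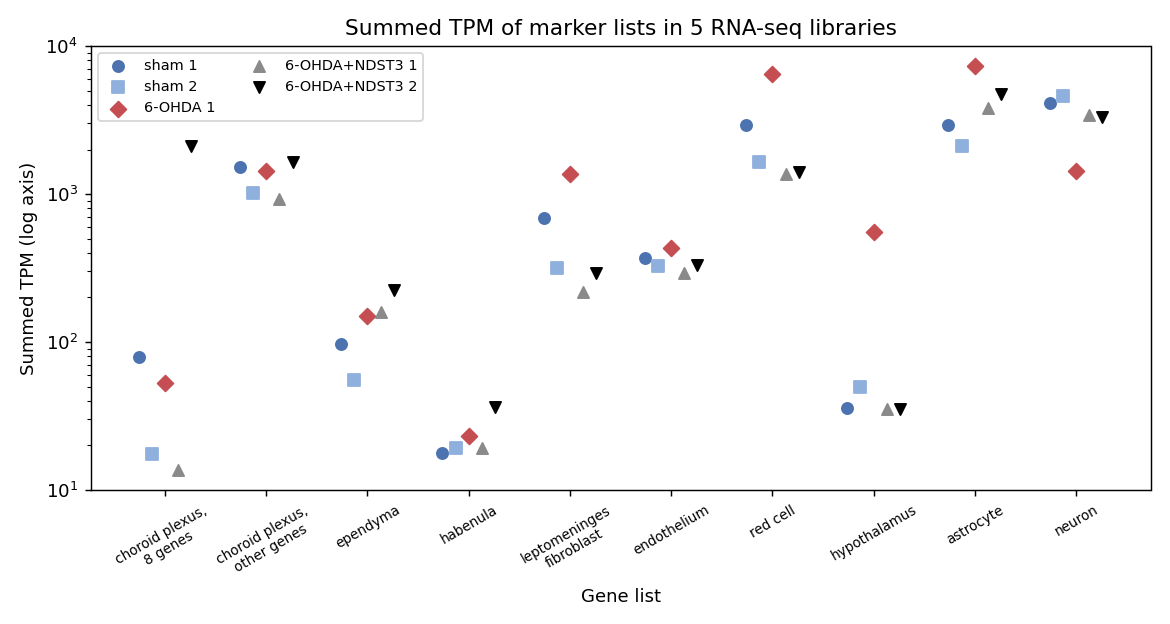
Summed TPM on a log axis (y) of the 8 choroid plexus genes, the other choroid plexus genes and 8 marker lists (x) in the 5 RNA-seq libraries, 1 point per library. The sum of the 8 genes spans 13.6 to 2129 TPM with the black triangle at the top, whereas leptomeningeal, red cell and hypothalamic sums are highest in the 6-OHDA library.

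The genes outside the choroid plexus lists with the most similar profile were found by the Euclidean distance over the 5 libraries between the centred log2(CPM + 1) of a gene and the median profile of the 8, among 15523 genes. The 10 nearest had distances of 0.425 to 0.998. Nearest was Rbp3, the interphotoreceptor retinol-binding protein of retina and pineal gland, with 19 and 22 counts in sham, 10 in the 6-OHDA library and, with NDST3, 18 and 388. Tph1, the tryptophan hydroxylase of the pineal gland, had 14, 10, 14, 6 and 257 counts in the same order. Sspo, which encodes SCO-spondin of the subcommissural organ, had 108, 93, 142, 119 and 1392 counts. The others were Nat8f4, Fggy, Gpr151, Adgrd1, Gm30512, Stum and Slitrk6. Each was highest in replicate 2, which is no finding, because the genes were chosen by closeness to a profile that peaks there. Stum had the most counts, 2263, 3795, 4108, 2130 and 13141 in the same order.

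The 8 genes made the median profile themselves, so their closeness to it is no finding. Clic6 ranked 1, Kcne2 4, Slc4a5 11, Sostdc1 16, Folr1 20, Kl 21 and Prlr 204 by this distance. Ttr ranked 15494, because its range over the libraries, 8.8 on the log2 scale, was far wider than that of the median profile. From the list of 39, Tmem72 ranked 2, F5 3, Cldn2 6, Car12 12 and Krt18 14. The distance thus measures amplitude as well as shape.

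Near the starts of the 8 genes, the H3K27ac table lists a region for 1 gene and the ATAC-seq table for 2, where 32.9% and 9.5% of all genes in the RNA-seq table have one. The H3K27ac region, of Prlr, was at -81 bases from the start and had a tag signal of 22.78 in sham, 20.65 in the 6-OHDA group and 22.20 in the NDST3-treated group. Its log2 ratio of NDST3-treated to sham was -0.04, beside a median of 0.53 over all 11424 regions. The ATAC-seq table lists a region for Ttr at -864 bases, with signals of 8.74, 13.25 and 14.27 in the same order, and 1 for Kcne2 at -318 bases, with 23.79, 19.25 and 26.85. Their log2 ratios of NDST3-treated to sham were 0.65 and 0.17, beside a median of 0.2 over 3582 regions. Each group has 1 column, so these ratios have no replicate check, and which RNA-seq library they correspond to is not given.

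In scRNA-seq, a droplet method, the deposited table gives a mean per gene for 9 numbered clusters in 1 6-OHDA library and 1 NDST3-treated library. The means appear to be on a natural log scale (log of 1 plus scaled counts), so they are compared by differences. All 8 genes had their highest mean in cluster 2, in both groups. For Ttr this was 0.941 in the 6-OHDA group and 0.882 in the NDST3-treated group. It was 0.479 and 0.51 for Folr1, 0.202 and 0.241 for Clic6, and 0.139 and 0.226 for Sostdc1.

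The remaining genes had the same place. Cluster 2 means were 0.171 and 0.198 for Prlr, 0.077 and 0.122 for Slc4a5, 0.209 and 0.187 for Kl, and 0.111 and 0.152 for Kcne2. The NDST3-treated value was the higher for 6 of the 8 genes, with Ttr and Kl the exceptions. With 1 library per group and no cell counts in the table, these differences have no error and no test. Outside cluster 2, no gene but Ttr had a mean above 0.0469.

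Cluster 2 was not a cluster of choroid plexus epithelium alone. In the 6-OHDA and the NDST3-treated group it held the highest means of 33 and 34 of 42 further choroid plexus genes. In the same order it held those of 14 and 15 of 15 ependymal markers and 8 and 7 of 8 astrocyte markers. It also held those of 5 and 6 of 7 oligodendrocyte markers and, in both groups, of 5 of 6 neuron and 7 of 12 leptomeningeal markers. The share of all genes with their highest mean in cluster 2 was not determined, so these counts have no background beside them. The median of the cluster means of the 15 ependymal markers in cluster 2 was 0.909 and 0.807, and that of the 8 choroid plexus genes was 0.187 and 0.212. The share of choroid plexus cells in it cannot be read from means.

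Ttr was also listed outside cluster 2, where the other 7 genes were near 0. Its means in the other 8 clusters were 0.262 to 0.412 in the 6-OHDA group and 0.107 to 0.144 in the NDST3-treated group. The difference was negative in 8 of 8 clusters, from -0.269 to -0.137. These clusters include those led by markers of neutrophils (cluster 1), T cells (cluster 4), B cells (cluster 9) and endothelium (cluster 7), cell types for which Ttr is not a marker. Free RNA in the droplets was not measured in this table and its part was not tested.

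**Figure D5:**
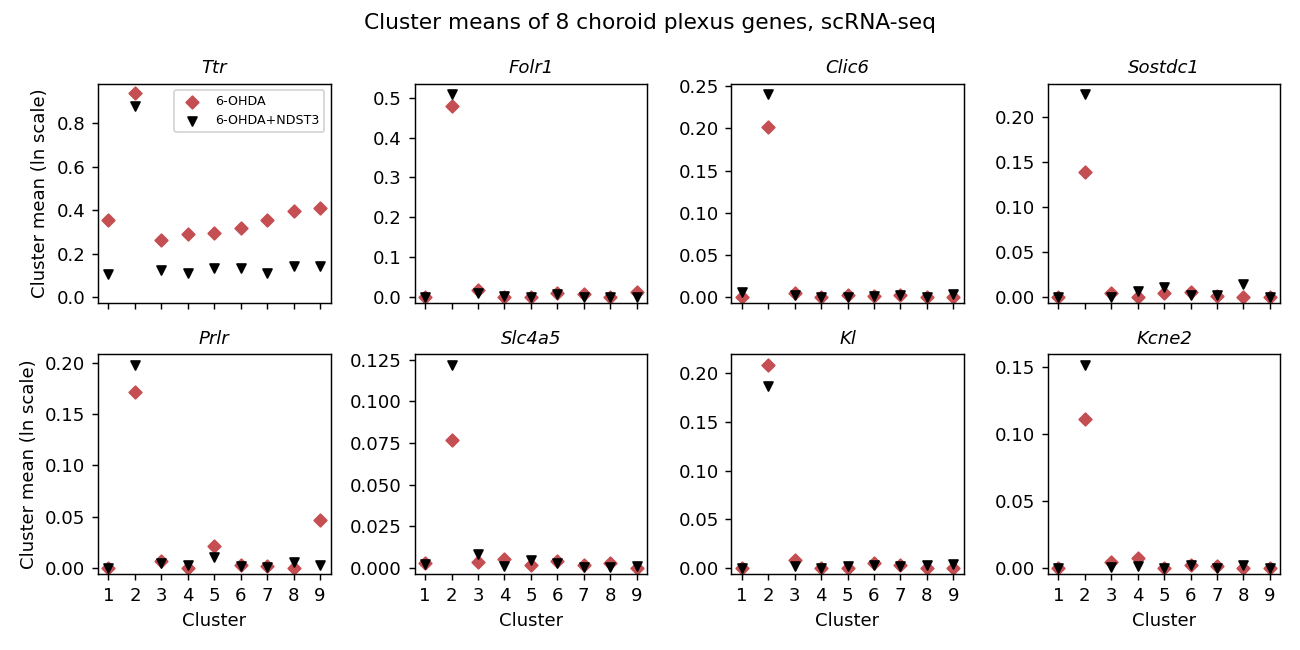
Deposited cluster means on a natural log scale (y) of the 8 choroid plexus genes in the 9 scRNA-seq clusters (x), for the 6-OHDA library (red) and the NDST3-treated library (black), each panel with its own y range. Cluster 2 is highest in every panel, and Ttr alone is above 0.1 in all other clusters, at 0.262 to 0.412 in the 6-OHDA group and 0.107 to 0.144 in the NDST3-treated group.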

How the data were processed

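RNA-seq libraries were made by the authors from poly-A mRNA with a stranded kit, and reads were trimmed with Trimmomatic, aligned to mm10 with HISAT2 and quantified with StringTie. The deposited table holds raw read counts per gene, and FPKM and TPM values by the authors, which correct for gene length and depth. FPKM values were not used. No listed gene has 0 counts in any library. For H3K27ac and ATAC-seq, the deposited tag signal is given per region and group, with 2 pooled libraries per group for H3K27ac, and its normalization is not given in the sources used here. Only 4.2% of H3K27ac and 11.8% of ATAC-seq regions lay where GRCm38 (mm10) starts place them (within 500 bases), so their distances are given and their coordinates are not. The scRNA-seq means were deposited by the authors as mean counts, per the header, but resemble a natural log of 1 plus counts scaled to 10000 per cell. The authors removed cells with very many detected genes to limit multiplets. No doublet caller could be run on means. The sham scRNA-seq library was not analysed here.

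Counts were tested with edgeR 4.0.16 (TMM factors, filterByExpr, glmQLFit and glmQLFTest, Benjamini-Hochberg adjustment) in R 4.3.3, in 1 fit of all 5 libraries with 2 residual degrees of freedom, so the lone 6-OHDA library borrows the spread of the replicated groups. A call is an adjusted p under 0.05. The fit was tested on counts simulated from its own means and dispersions, with changes placed in the 6-OHDA library only. That simulation does not check the model's assumptions or the NDST3 comparisons. Levels between genes are TPM, and between libraries CPM with TMM factors. Differences of the 8 genes are between group means of log2 CPM. Region ratios use a pseudocount of 1. The 8 genes and all lists were chosen with earlier results of these data known. The named genes are the 8, the list members past the adjusted threshold, the 10 genes of nearest profile (mean CPM of at least 1) and those needed to give a list's range, and list members with large or small library ratios were named after their values were seen. The values of 1 gene of the list are not reported here. Alternatives were RLE factors, DESeq2 1.42.0, no filter, the study's threshold (2-fold and unadjusted p under 0.05), only the groups compared, a replicate block, other scales and leaving out each replicate. Calculations outside R used Python 3.11.15, numpy 2.4.6, pandas 2.3.3 and matplotlib 3.10.9.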

Additional observations from a re-analysis of the deposited data

How the results depend on the processing

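The count of the 39 further choroid plexus genes called by edgeR was 9 for 6-OHDA against sham, 2 for NDST3-treated against 6-OHDA and 0 for NDST3-treated against sham. RLE factors gave 8, 2 and 0, and no filter gave the same 3 counts. DESeq2 gave 13, 8 (4 higher and 4 lower) and 3, with 7492, 5228 and 1039 of all genes called, where edgeR called 6916, 3019 and 0. The study's threshold (2-fold and unadjusted p under 0.05) gave 11, 7 and 5. A fit of only the groups compared gave 14, 0 and 0 (7106, 0 and 0 of all genes). With a replicate block the counts were 2, 0 and 0 (1796, 0 and 0 of all genes). Samples of the same number deviated in opposite directions (correlation over genes -0.432), and the labels state no pairing. With 2 libraries in each of these groups, samples of crossed numbers therefore deviated together. The crossed pairing, added after seeing the data, gave 14, 13 and 9 (7444, 4795 and 1194 of all genes). Because it was added in this way, its counts are no independent check. A block also leaves fewer residual degrees of freedom than the main fit. With each replicate left out in turn, the counts ranged from 0 to 15, from 0 to 4 and from 0 to 1, and 0 calls remained in each comparison without sham replicate 1 or sham replicate 2. The single 6-OHDA library could not be left out.

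The median log2 difference of the 8 genes ranged over left-out replicates from -0.49 to -0.04 for 6-OHDA against sham, from -0.71 to 2.89 for NDST3-treated against 6-OHDA and from -0.89 to 2.63 for NDST3-treated against sham. Both negative values of the treated group were those without NDST3-treated replicate 2. CPM without TMM factors, log2(TPM + 0.1) and log2(CPM + 1) gave -0.41 to -0.14, 1.11 to 1.27 and 0.83 to 0.92. A pseudocount of 0.1 left the region ratios within 0.1 on the log2 scale.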

Other observations

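Chromatin regions were also listed near the starts of further choroid plexus genes, outside the comparisons above. The H3K27ac table lists 16 regions for 8 of them, with log2 ratios of NDST3-treated to sham signal from -1.55 (Ecrg4) to 1.85 (Slco1a5), and 10 of the 16 were above the median of all regions (0.53). For Slco1a5 the signal was 2.02 in sham, 5.95 in the 6-OHDA group and 9.92 in the NDST3-treated group. The ATAC-seq table lists 12 regions for 8 genes, with ratios from -1.46 (Msx1) to 1.28 (Spint2), and 8 of the 12 were above the median of all regions (0.2). Tmem72, among the genes with the widest gap between the NDST3-treated RNA-seq libraries, had 3 ATAC-seq regions with ratios of 0.86, 0.41 and 0.19. The log2 ratios of 6-OHDA to sham at these regions were 0.38, 0.57 and 0.45, and those of NDST3-treated to 6-OHDA were 0.49, -0.15 and -0.26. These values have no replicate and no test, and regions of 1 gene are not independent of each other.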
